A study of Mus musculus with 4 samples.

Results

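Chemokine receptors are the surface proteins by which T cells read the chemokine gradients that hold them in a tissue or lead them out of it. The members described here are 9 receptor genes of liver CD4 cells, Ccr2, Ccr4, Ccr6, Ccr7, Ccr8, Cxcr3, Cxcr4, Cxcr6 and Cx3cr1, taken by symbol from the 32285 genes of the single-cell tables. The list is one of names, drawn up with earlier results of these data known, and all 9 symbols were found in both tables. In the library labelled dKO, Foxp3+ T cells held 606 CPM of Ccr8 against 243 CPM in the library labelled WT, while Ccr4, Ccr6 and Ccr7 were more than 2-fold lower there.

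The series holds 1 single-cell RNA library per genotype and the matching T cell receptor library, made from CD4 cells sorted from the liver. Each library pooled 2 male mice that had eaten for 8 weeks a choline-deficient diet with 60 kcal% fat and 0.1% methionine, which induces steatohepatitis, and the age of the mice is not given in the sources used here. The mice labelled dKO were Nr4a1 fl/fl Nr4a2 fl/fl Cd4-Cre, in which the Cre driver acts from the thymus onward in CD4 and CD8 T cells alike, and the others were WT. Nr4a1 and Nr4a2 encode orphan nuclear receptors induced by T cell receptor signals. The files do not separate the mice of a pool, so there is no replicate and no test between genotypes, and every interval below is a 95% interval for counting error only.

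These receptors are coupled to inhibitory G proteins and differ in the chemokines they bind. CCR7 recognises the lymph node chemokines CCL19 and CCL21 and marks naive and central memory T cells. CXCR3 is the receptor of the interferon-induced CXCL9 and CXCL10, CCR6 of CCL20, CCR4 of CCL17 and CCL22, CCR8 of CCL1 and, in the mouse, CCL8, CCR2 of CCL2 and its relatives, CXCR4 of CXCL12, CXCR6 of the membrane-bound CXCL16, and CX3CR1 of CX3CL1. In the liver, CXCL16 is displayed by sinusoidal endothelium and CXCR6 is a known residency receptor of liver lymphocytes.

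After cells with at most 200 genes or with 5% or more mitochondrial UMIs were removed, 10556 cells with 23437516 UMIs (unique molecules counted) remained in the library labelled WT and 17462 cells with 37794986 UMIs in that labelled dKO. The median cell held 1679 and 1685 UMIs. T cells, called by at least 2 Cd3 UMIs or a T cell receptor beta chain, made up 66.4% and 64.8% of them, and pDC-like cells (plasmacytoid dendritic cells, which also carry Cd4) made up 12.8% and 18.6%. The targeted genes went against the labels. Nr4a1 stood at 726 CPM (the standard counts-per-million unit, a gene's UMIs scaled to the same total in every class) in T cells of the library labelled WT and at 1923 CPM in those labelled dKO, and Nr4a2 at 202 and 439 CPM; counts per gene do not resolve the floxed exons. Cd4 itself was at 255 and 871 CPM in T cells, and Cd8a was at 1 and 6 UMIs and Cd8b1 at 118 and 319 UMIs (7.34 and 15.7 CPM). The 2 libraries shared 242 cell barcodes, of which 25 carried a beta chain in both and 0 the same one. Because of the Nr4a readings, each direction below is stated between libraries by their labels.

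Of the 9 genes, 5 lie on chromosome 9 (GRCm38, GENCODE M21). Ccr4 (ENSMUSG00000047898, chr9:114490316-114504916, minus strand), Cx3cr1 (ENSMUSG00000052336, chr9:119901616-120069879, minus), Ccr8 (ENSMUSG00000042262, chr9:120092114-120094906, plus), Cxcr6 (ENSMUSG00000048521, chr9:123806475-123811760, plus) and Ccr2 (ENSMUSG00000049103, chr9:124101950-124113557, plus) each have their coding sequence in 1 exon. Cx3cr1 and Ccr8 are neighbours, 22234 bases apart with 0 protein-coding genes between them, and their patterns over the classes below had little in common (Pearson's r = -0.07 over 22 profiles). Ccr6 (ENSMUSG00000040899) lies at chr17:8236043-8257141 on the plus strand, Ccr7 (ENSMUSG00000037944) at chr11:99144196-99155077, Cxcr3 (ENSMUSG00000050232) at chrX:101731535-101734269 and Cxcr4 (ENSMUSG00000045382) at chr1:128588199-128592293, all 3 on the minus strand. Cxcr6 overlaps Fyco1 on the other strand, and the annotated span of Cx3cr1 overlaps 9 genes, Csrnp1 and Xirp1 among them on its own strand.

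Of the members, 8 had an entry in the RefSeq promoter table of GRCm38.p6, with 9 promoters in all. The 250 bases before the start are shown for the 3 receptors that differed most between the libraries in Foxp3+ T cells and have an entry, 5′ to 3′ on the gene's strand, with the motif letters found in capitals.
Ccr8 (chr9:120091883-120092132, plus strand): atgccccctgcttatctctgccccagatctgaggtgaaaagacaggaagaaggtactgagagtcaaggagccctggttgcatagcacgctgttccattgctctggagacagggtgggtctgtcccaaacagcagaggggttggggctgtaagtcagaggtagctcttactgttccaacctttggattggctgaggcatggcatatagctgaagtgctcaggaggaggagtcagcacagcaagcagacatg
Ccr4 (chr9:114496545-114496794, minus strand): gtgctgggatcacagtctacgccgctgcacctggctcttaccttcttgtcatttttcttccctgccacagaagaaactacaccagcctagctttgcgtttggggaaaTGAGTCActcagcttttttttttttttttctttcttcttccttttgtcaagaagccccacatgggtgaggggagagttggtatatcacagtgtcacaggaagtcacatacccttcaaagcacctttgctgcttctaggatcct
Ccr6 (chr17:8235793-8236042, plus strand): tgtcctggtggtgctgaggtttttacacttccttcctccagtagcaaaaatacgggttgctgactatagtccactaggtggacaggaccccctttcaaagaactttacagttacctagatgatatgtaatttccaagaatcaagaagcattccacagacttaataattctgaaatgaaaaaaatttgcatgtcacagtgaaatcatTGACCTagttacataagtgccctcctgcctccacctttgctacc
The letters searched for, on both strands, were AAAGGTCA (NBRE, the element bound by NR4A proteins), TGANTCA (AP-1), GGTGTGA (T-box), AGGTCA (the ROR element, which is also part of the NBRE) and TGTTTAC (forkhead). The Ccr4 window holds TGAGTCA, starting 143 bases before the start, and 6.75% of all 32851 promoter windows hold an AP-1 match. The first of 2 Ccr6 promoters holds TGACCT, the site on the other strand, 44 bases before the start, as 14.02% of windows hold on either strand. No other window of the members holds any of the 5 motifs, and NBRE letters, present in 1.34% of windows, T-box letters (3.33%) and forkhead letters (3.17%) are in none of them.

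T cells were divided by marker genes into classes, none of which used a member. The gates were applied in the order low-ribosomal droplets, cycling, iNKT, Foxp3+, Ifng+Il17+, Il17+, Ifng+, naive-like, Fasl/Klrk1+ and Cd40lg+. Each T cell went to the first gate it passed, so a class holds only the marker-positive cells that no earlier gate took. The Foxp3+ T cells (at least 1 Foxp3 UMI) numbered 395 and 3037, in the order WT and dKO used for all paired values. They came from 463 and 3229 T cells with a Foxp3 UMI. The Ifng+ class held 1373 and 699 cells, Il17+ (Il17a or Il17f) 129 and 298, Fasl/Klrk1+ 684 and 511, Cd40lg+ 1001 and 548, naive-like 1343 and 710, cycling 535 and 447, and iNKT (by their invariant receptor) 50 and 53. The T cells of no gate numbered 1409 and 4962. Ifng+Il17+ cells (26 and 6) and low-ribosomal T droplets (66 and 46) were too few for most genes and are not among the 9 T classes compared below. The T cells of no gate held more of several genes of regulatory T cells in the library labelled dKO, with Ctla4 at 436 and 1874 CPM, Ikzf2 at 253 and 928 CPM and Tigit at 148 and 943 CPM. The same genes were also higher in that library in the Ifng+, Fasl/Klrk1+ and Cd40lg+ classes. Ctla4 stood at 323 and 839 CPM in Ifng+ cells, 294 and 710 CPM in Fasl/Klrk1+ cells and 348 and 766 CPM in Cd40lg+ cells. The Foxp3+ gate was itself checked by such genes, and Ctla4 stood at 1400 and 2383 CPM there and Ikzf2 at 874 and 1171 CPM, while Il2ra was lower in the library labelled dKO, at 286 and 198 CPM.

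**Figure D1:**
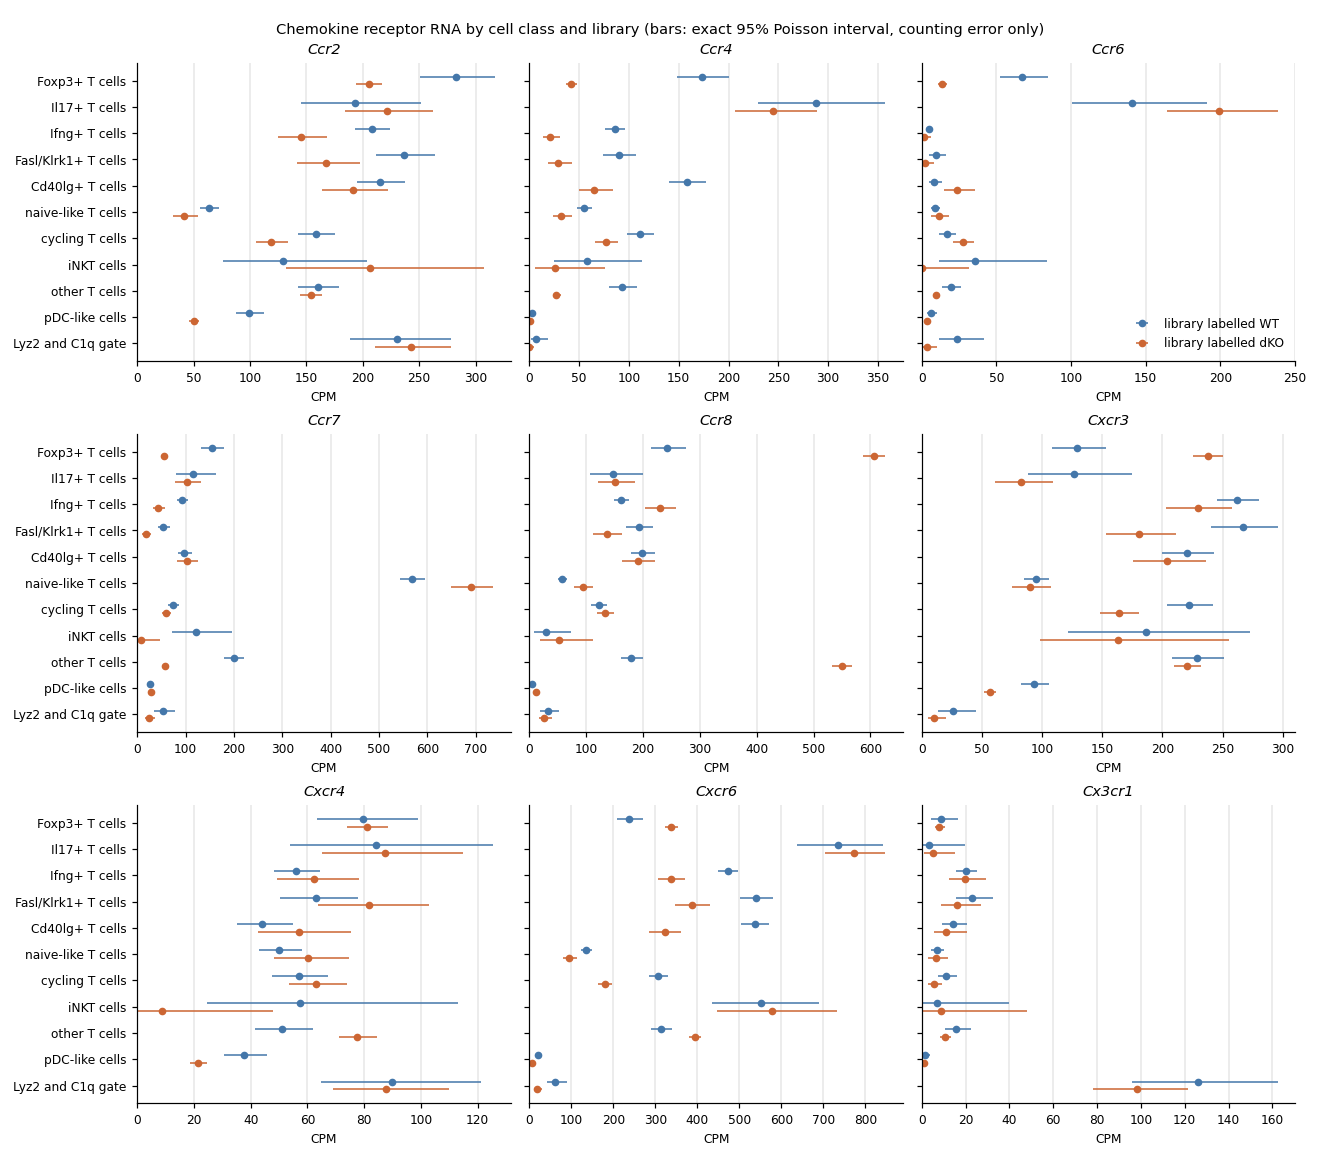
Level of each receptor (CPM, horizontal axis, with its own scale in each panel) in 9 T cell classes (other T cells are those of no gate), pDC-like cells and cells of the Lyz2 and C1q gate. Blue points are the library labelled WT, orange points the library labelled dKO, and bars are exact 95% Poisson intervals. Ccr7 peaks in naive-like cells, Ccr6 and Cxcr6 in Il17+ cells and Ccr8 in Foxp3+ cells of the library labelled dKO.

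The lymph node receptor Ccr7 was highest among T cells in the naive-like class, at 569 CPM (545 to 595) and 691 CPM (649 to 736). This was the only class in which it was higher in the library labelled dKO beyond counting error, with a log2 ratio of dKO over WT of 0.28 (0.17 to 0.39). T cells of no gate held 199.7 and 57.8 CPM, and the Fasl/Klrk1+ class, whose genes encode a death ligand and an activating receptor, held 54.0 and 17.2 CPM. In Ifng+ cells Ccr7 was at 93.3 and 43.6 CPM, a log2 ratio of -1.10 (-1.55 to -0.68). In Cd40lg+ cells it was at 97.4 and 102 CPM and in Il17+ cells at 116 and 103 CPM, so the libraries differed there by less than counting error. In iNKT cells 17 and 1 UMIs were counted.

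In Foxp3+ cells Ccr7 stood at 154 CPM (131 to 180) and 55.3 CPM (49.5 to 61.6), a log2 ratio of -1.48 (-1.76 to -1.20). Every cell was also cut down at random to 1000 UMIs, without the 43 and 496 Foxp3+ cells that had fewer. After this thinning 7.10% and 3.42% of Foxp3+ cells had a Ccr7 UMI (15.2% and 5.17% unthinned, at median depths of 2069 and 1570 UMIs). In the Lyz2 and C1q gate 1.81% and 2.76% of cells did (median depths of 1583 and 2992.5 UMIs). That gate, chosen as a background for Ccr7, held 53.4 and 24.6 CPM of it and so cannot stand for cells without Ccr7. The Foxp3+ cells with at least 2 UMIs of the naive list, here called resting-type, made up 29.4% of the class in the library labelled WT and 7.54% in that labelled dKO, and held most Ccr7, at 284 and 220 CPM. Cells were not thinned for this gate, and the part of the unequal depth in these shares was not tested. Resting-type cells held 443020 of the 1029258 UMIs of the class in the library labelled WT. With this share of UMIs, not of cells, given to both libraries, Ccr7 in that labelled dKO came to 112 CPM. The log2 ratio came to -0.46, within 2-fold. This calculation was chosen after the data were seen, and it weights by UMIs wherever the resting-type share is held equal below. Over all T cells Ccr7 was at 210 and 101 CPM, a log2 ratio of -1.05 (-1.13 to -0.97). With the class levels of the library labelled dKO at the class mix of that labelled WT it came to 195 CPM, a log2 ratio of -0.10. The class mix, here and below, is that of T cell UMIs. Naive-like cells held 3520548 of 16069117 of these in the library labelled WT and 1408817 of 20315858 in that labelled dKO. By number they were 12.7% and 4.07% of all cells. Why Ccr7 over all T cells differed between the libraries was not tested.

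Of the receptors of inflammatory T cells, the interferon-chemokine receptor Cxcr3 was found in every T class. It ranged from 95.2 CPM in naive-like cells to 267 CPM in Fasl/Klrk1+ cells of the library labelled WT, a 2.81-fold range, and over a 2.89-fold range in that labelled dKO. In Ifng+ cells, whose cytokine induces its ligands, Cxcr3 stood at 262 CPM (245 to 280) and 229 CPM (203 to 258). Il17+ cells held less, at 126 and 82.3 CPM. Cxcr3 in Foxp3+ cells was at 129 CPM (108 to 153) and 238 CPM (226 to 251), below the Ifng+ class in the first library and at its level in the second. The log2 ratio was 0.88 (0.62 to 1.15), or 13.4% and 20.2% of thinned cells with a UMI (24.3% and 32.0% unthinned). This was the only one of 9 T classes in which Cxcr3 was higher in the library labelled dKO beyond counting error. It was lower in the Fasl/Klrk1+ class (267 and 180 CPM, -0.57) and in cycling cells (222 and 164 CPM, -0.44).

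The CCL2 receptor Ccr2 was highest in Foxp3+ cells of the library labelled WT, at 283 CPM (251 to 317), and at 205 CPM (194 to 217) in those labelled dKO. It was lowest in naive-like cells, at 63.6 and 41.9 CPM, and the remaining T classes lay between 119 and 237 CPM. In 5 of 9 T classes Ccr2 was lower in the library labelled dKO beyond counting error and in 0 higher, each within 2-fold, with log2 ratios from -0.60 to 0.68. Of these 5, the interval of 3 reached 0 under an alternative, in naive-like cells (-0.01) and Fasl/Klrk1+ cells (-0.24) with 1 more UMI in the gates and in cycling cells (-0.24) with 1 cell per clonotype. Thinned Foxp3+ cells held a Ccr2 UMI in 21.3% and 15.03% of cases (38.0% and 23.1% unthinned), against 4.68% and 2.67% of naive-like cells. Cells of the Lyz2 and C1q gate, where Ccr2 marks monocyte-derived cells, held 231 and 243 CPM. That class numbered 219 and 276 cells, had 0 of its gate genes among its 10 leading genes and held S100a8, a neutrophil and monocyte gene, at 36.3 and 5230 CPM, so it is named here only by its gate.

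Il17+ cells stood out by Ccr6, the CCL20 receptor of type 17 cells, at 141 CPM (100.4 to 191) and 199 CPM (164 to 238). Between the libraries it differed by less than counting error in this class, with a log2 ratio of 0.50 (-0.03 to 1.06). In thinned Il17+ cells a Ccr6 UMI was found in 15.9% and 16.5% (26.4% and 28.9% unthinned), and in pDC-like cells, which should lack it, in 0.636% and 0.309% (median depths of 1387.5 and 2904 UMIs). Ifng+ cells held 4.71 and 1.64 CPM, from 16 and 2 UMIs. Among cells that are not T cells, 38 and 20 ILC3-like cells, innate lymphocytes that share the type 17 programme, held Ccr6 at 732 CPM (559 to 942) and 432 CPM (242 to 713).

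Of the 9 T classes, Foxp3+ cells were the second by Ccr6 in the library labelled WT, at 67.0 CPM (52.2 to 84.8), and had 13.9 CPM (11.03 to 17.2) in that labelled dKO. The log2 ratio was -2.27 (-2.75 to -1.79), and 0.243% of the 6574 genes tested had a lower one. A Ccr6 UMI was found in 5.11% and 1.14% of thinned Foxp3+ cells, so that the share in the library labelled dKO was nearer the pDC-like share of 0.309% than that of the other library. Resting-type Foxp3+ cells differed little, at 51.9 and 41.5 CPM (23 and 31 UMIs). Those with no Il10 or Il1rl1 UMI and under 2 UMIs of the naive list held 70.4 and 9.31 CPM. At an equal resting-type share the log2 ratio came to -1.51. Ccr6 went the other way in cycling cells, at 16.7 and 27.4 CPM (39 and 66 UMIs, log2 ratio 0.71, 0.12 to 1.32), and in the Cd40lg+ class, from 8.17 CPM (4.57 to 13.5) to 23.6 CPM (14.6 to 36.0), a log2 ratio of 1.53 (0.50 to 2.59) that rests on 15 and 21 UMIs and came to 0.93 (-0.63 to 2.36) with 1 more UMI in the gates.

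Ccr4, the receptor of the dendritic cell chemokines CCL17 and CCL22, was highest in Il17+ cells, at 288 CPM (229 to 358) and 245 CPM (207 to 289), where the libraries did not differ beyond counting error. In every other T class with enough counts, 7 of 8 in all, it was lower in the library labelled dKO. Foxp3+ cells held 173 CPM (148 to 200.3) and 41.9 CPM (36.9 to 47.5), a log2 ratio of -2.04 (-2.33 to -1.76). Ifng+ cells held 85.6 and 20.5 CPM (-2.06), Fasl/Klrk1+ cells 89.5 and 28.7 CPM (-1.64), Cd40lg+ cells 158 and 65.0 CPM (-1.28) and T cells of no gate 93.2 and 27.0 CPM (-1.78). The difference was smaller in naive-like cells (54.8 and 31.9 CPM, -0.78) and cycling cells (111 and 76.7 CPM, -0.53), and with 1 more UMI in the gates that in naive-like cells came to -0.23 (-0.70 to 0.22).

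The share of thinned Foxp3+ cells with a Ccr4 UMI was 14.8% and 3.35% (26.8% and 6.16% unthinned), and in pDC-like cells it was 0.212% and 0.0309%. All 4 parts of the Foxp3+ class showed the lower level. Resting-type cells held 149 and 95.1 CPM, Il1rl1+ cells 143 and 60.0 CPM, Il10+ cells 343 and 32.7 CPM (27 and 47 UMIs) and the cells of none of these 185 and 35.8 CPM; a cell may belong to more than one of the first 3. At an equal resting-type share the log2 ratio was -1.52. Over all T cells Ccr4 was at 102 and 45.1 CPM, a log2 ratio of -1.18 (-1.30 to -1.06) that stayed at -1.25 at an equal class mix.

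Ccr8, the CCL1 receptor known from regulatory T cells of tissues and tumours, was highest in the Foxp3+ class of both libraries. It stood there at 243 CPM (214 to 275) and 606 CPM (587 to 627), a log2 ratio of 1.32 (1.13 to 1.51) and a 2.5-fold difference that 98.3% of the genes tested lay below. A Ccr8 UMI was found in 20.2% and 38.2% of thinned Foxp3+ cells (31.1% and 51.4% unthinned), and in 0.636% and 0.804% of pDC-like cells. The difference held in the resting-type cells (185 and 313 CPM), the Il1rl1+ cells (318 and 677 CPM) and the remainder (237 and 637 CPM), and was smallest in Il10+ cells, where 29 and 643 cells held 496 CPM (353 to 678) and 620 CPM (580 to 662). At an equal resting-type share the log2 ratio was 1.05.

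In T cells of no gate Ccr8 was at 179 CPM (161 to 199) and 549 CPM (532 to 567), a log2 ratio of 1.62 (1.46 to 1.78). In the library labelled dKO this was the highest of the other T classes compared, while in that labelled WT the Cd40lg+ and Fasl/Klrk1+ classes lay above it. T cells of no gate also held more Ctla4, Ikzf2 and Tigit in the library labelled dKO, as did Ifng+, Fasl/Klrk1+ and Cd40lg+ cells. How many T cells of no gate express Foxp3 below detection was not tested. In Ifng+ cells Ccr8 was at 162 and 230 CPM (0.51) and in naive-like cells at 57.9 and 93.7 CPM (0.69). Il17+ cells (148 and 151 CPM), Cd40lg+ cells (199 and 191 CPM) and cycling cells (122 and 133 CPM) did not differ beyond counting error. Fasl/Klrk1+ cells held less in the library labelled dKO, 192 and 136 CPM (-0.50, interval -0.83 to -0.19). Over all T cells Ccr8 was at 148 and 418 CPM, a log2 ratio of 1.499 that was 0.68 at an equal class mix.

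Cxcr6, the residency receptor, was highest in Il17+ cells at 734 CPM (638 to 841) and 773 CPM (703 to 848), followed by iNKT cells at 552 CPM (436 to 690) and 577 CPM (447 to 732). ILC3-like cells, with 60 and 19 UMIs, held 732 and 547 CPM. Naive-like cells were the lowest T class, at 135 and 95.1 CPM. In 5 of 9 T classes it was lower in the library labelled dKO beyond counting error, the Ifng+ (472 and 337 CPM), Fasl/Klrk1+ (539 and 386 CPM), Cd40lg+ (536 and 322 CPM), naive-like and cycling (306 and 179 CPM, -0.77) classes. It was higher there in 2, the Foxp3+ class and T cells of no gate (313 and 394 CPM, 0.33). With 1 more UMI in the gates the ratio in T cells of no gate turned to -0.05 (-0.14 to 0.03), and the intervals in naive-like cells (-0.13) and Fasl/Klrk1+ cells (-0.26) reached 0.

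In Foxp3+ cells Cxcr6 was at 238 CPM (209 to 270) and 338 CPM (323 to 353), a log2 ratio of 0.51 (0.31 to 0.70). A UMI was found in 13.6% and 24.7% of thinned cells (27.6% and 34.3% unthinned), against 2.33% and 0.340% of pDC-like cells. Clone size moved with it in the library labelled dKO. Foxp3+ cells of clones of 10 or more cells, 365 cells, held Cxcr6 at 506 CPM, those of clones of 2 to 9 cells, 278 cells, at 349 CPM, and those seen once, 566 cells, at 251 CPM. The 1828 Foxp3+ cells without a receptor contig, most of the 3037, held 334 CPM and enter none of these 3 groups. Ccr8 did not follow clone size, at 580, 678 and 531 CPM in the same order, and Ccr7 and Ccr4 ran the other way in the largest clones, at 22.3 and 16.7 CPM against 61.4 and 68.4 CPM in cells seen once. In the library labelled WT only 9 Foxp3+ cells were in clones of 10 or more, with 5 Cxcr6 UMIs. Cells of 1 clone share their ancestor and their mouse, so these values describe few independent lineages.

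Cxcr4, which holds lymphocytes in marrow and inflamed tissue through CXCL12, was the most even member. Leaving out iNKT cells, with 8 and 1 UMIs, it lay between 44.1 and 84.3 CPM over the T classes of the library labelled WT and between 57.2 and 87.4 CPM in the other. Foxp3+ cells held 79.7 and 81.0 CPM, a log2 ratio of 0.02 (-0.32 to 0.38). The libraries differed beyond counting error in 1 of 8 T classes, the T cells of no gate (50.9 and 77.6 CPM, 0.61).

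Cx3cr1, the fractalkine receptor of patrolling monocytes, tissue macrophages and terminal effector T cells, was near the detection limit in T cells. It was at 8.74 and 7.95 CPM in Foxp3+ cells, from 9 and 47 UMIs, and 0.568% and 0.748% of thinned cells had a UMI, against 0.537% and 0.148% of naive-like cells. The Fasl/Klrk1+ class (22.9 and 16.1 CPM) and the Ifng+ class (20.01 and 19.7 CPM) had the most among T cells. Cells of the Lyz2 and C1q gate held 126 CPM (95.9 to 162) and 98.2 CPM (78.3 to 122), with no difference between the libraries beyond counting error. Ccr8, whose gene is next to it, was at 32.0 and 25.7 CPM in that gate.

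**Figure D2:**
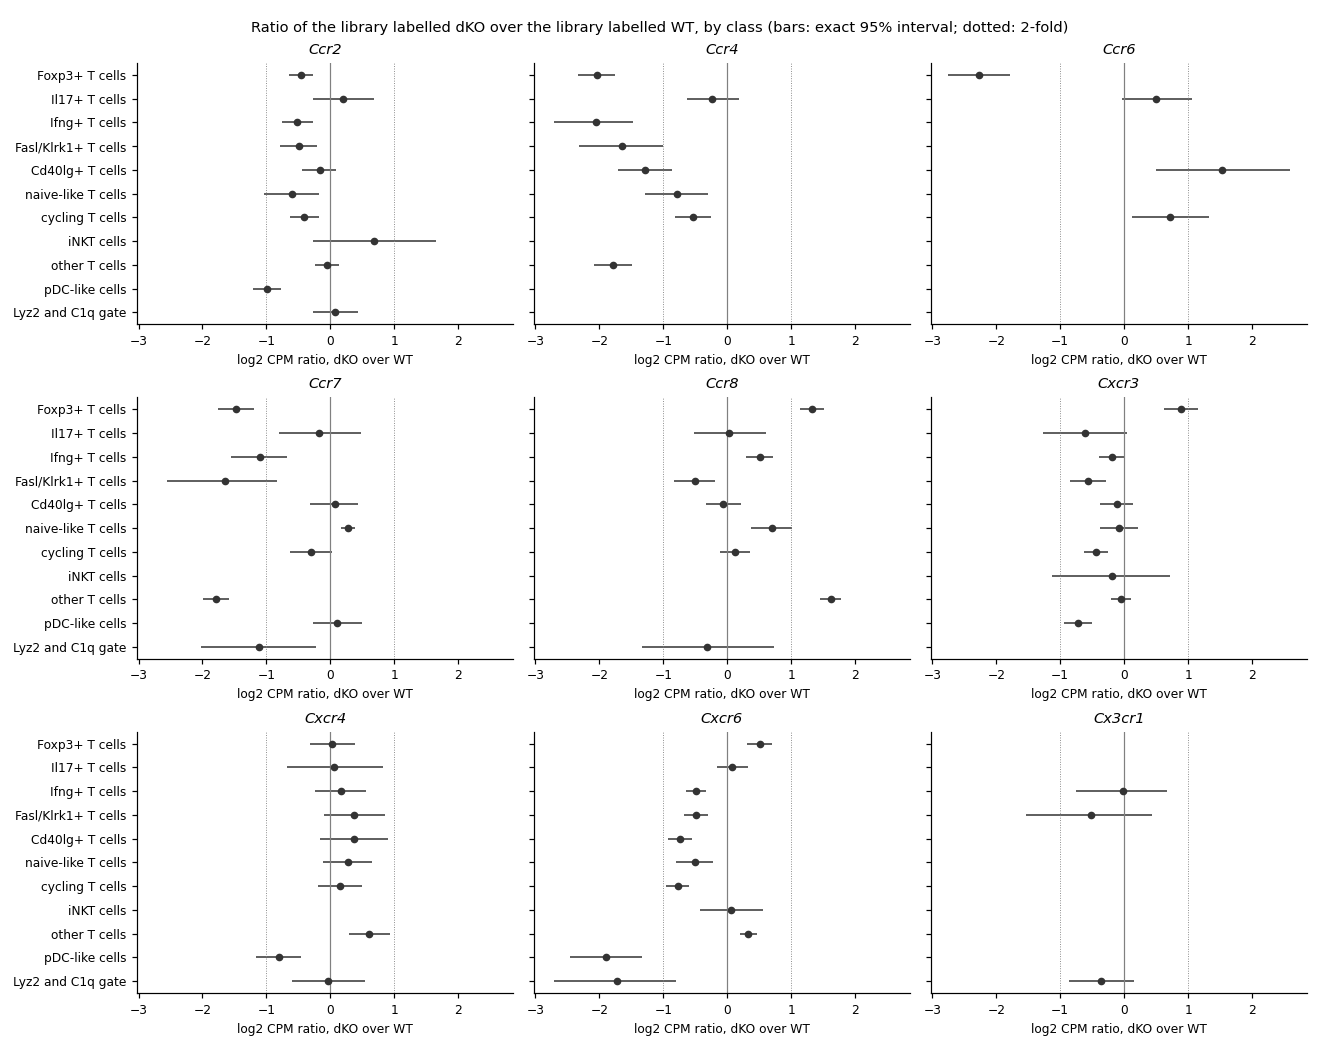
Log2 ratio of CPM, library labelled dKO over library labelled WT (horizontal axis, 0 for no difference, dotted lines at 2-fold), for each receptor and class. Bars are exact 95% intervals for counting error, and classes where a receptor had too few counts are left empty. Ccr4 lies left of 0 in every class shown and Ccr8 to the right in Foxp3+ cells and T cells of no gate.

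Members were counted as past 2-fold where a gene reached 20 CPM in either library and 30 UMIs in the pair. In Foxp3+ T cells 8 of the 9 members passed this filter, all but Cx3cr1, and 1 was higher (Ccr8) and 3 were lower (Ccr4, Ccr6 and Ccr7) in the library labelled dKO, where 3.21% of all genes tested were past 2-fold higher and 3.53% lower. At the resting-type share of the library labelled WT, Ccr7 came to -0.46, within 2-fold. The median log2 ratio was -0.22 over the members and 0.02 over all genes tested. In Ifng+ cells 2 of 8 members were lower, Ccr4 and Ccr7, and 0 higher (background 2.48% and 2.38%), but Ccr7 came to -0.79, within 2-fold, when CPM was averaged over cells. The Fasl/Klrk1+ class had the same pair lower and 0 higher of 8 (2.98% and 2.04%), and Ccr7 there came to -0.80 with 1 more UMI in the gates. In Cd40lg+ cells Ccr4 was lower and Ccr6 higher of 8 (2.68% and 1.92%), Ccr6 within 2-fold with 1 more UMI in the gates, and in T cells of no gate Ccr4 and Ccr7 were lower and Ccr8 higher of 7 (2.6% and 4.88%).

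Il17+ cells had 0 of 8 members past 2-fold in either direction (background 3.12% higher and 2.68% lower), naive-like cells 0 of 7 (1.71% and 1.22%), cycling cells 0 of 8 (1.93% and 3.4%) and iNKT cells 0 of 3 (2.59% and 3.1%). In the small class with Ifng and Il17 together, 26 and 6 cells, 1 of 2 members was past 2-fold, Ccr8 with 31 and 1 UMIs and an interval that includes 0 (7.94% higher and 15.9% lower). Among pDC-like cells Cxcr6 was lower, 1 of 5 members (background 0.797% higher and 1.32% lower), at 20.5 and 5.50 CPM (log2 ratio -1.90). With no limit on Cd3 UMIs in these cells its log2 ratio was -0.65, and Ccr8 was past 2-fold higher in its place. Cells of the Lyz2 and C1q gate had Ccr7 and Cxcr6 lower of 6 (background 4.08% higher and 3.13% lower), from 25 and 21 and from 29 and 16 UMIs. Both came within 2-fold (-0.03 and -0.82) when CPM was averaged over cells. Over all T cells 1 of 7 was higher, Ccr8, and 2 lower, Ccr4 and Ccr7 (3.64% and 2.38%).

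Within each library, Foxp3+ cells were then set against all other T cells. The other T cells included those with a Foxp3 UMI that an earlier gate had taken. In the library labelled WT, Ccr6 was past 2-fold higher in Foxp3+ cells, 67.0 against 13.8 CPM (log2 ratio 2.28, 1.86 to 2.68), 1 of 8 members with 0 lower (background 3.24% and 1.9%). In the library labelled dKO, Ccr7 was past 2-fold lower, 55.3 against 120.4 CPM (-1.12, -1.30 to -0.95), 1 of 7 with 0 higher (1.75% and 0.547%), and came to -0.79, within 2-fold, with 1 more UMI in the gates. Ccr8, Ccr2 and Cxcr4 were higher in Foxp3+ cells of both libraries within 2-fold, with log2 ratios of 0.78 and 0.83 for Ccr8, 0.79 and 0.52 for Ccr2, and 0.56 (0.21 to 0.89) and 0.19 (0.03 to 0.35) for Cxcr4. The second Cxcr4 value came to 0.00 (-0.22 to 0.22) with 1 more UMI in the gates and to 0.12 (-0.04 to 0.28) with TMM scaling. Ccr6, with just under 20 CPM in the other T cells and so not counted, was lower in Foxp3+ cells of the library labelled dKO, 13.9 CPM from 82 UMIs (-0.53, -0.90 to -0.17), the opposite of its direction in the library labelled WT. Cxcr3 was lower in Foxp3+ cells of the library labelled WT, 129 against 204 CPM (-0.66, -0.92 to -0.41), and higher in those labelled dKO, 238 against 189 CPM (0.33, 0.24 to 0.42). Cxcr6 was lower in the former (238 against 366 CPM, -0.62) and equal within counting error in the latter (338 against 335 CPM, 0.01). Ccr4 was 173 against 97.2 CPM in the former (0.83) and 41.9 against 46.5 CPM in the latter (-0.15, -0.36 to 0.06).

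**Figure D3:**
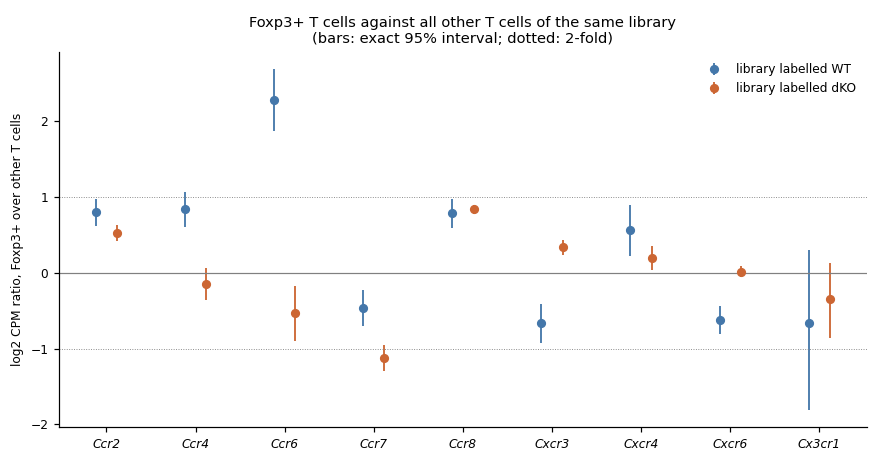
Log2 ratio of CPM in Foxp3+ T cells over all other T cells of the same library (vertical axis), for each receptor. Blue is the library labelled WT and orange the library labelled dKO, with exact 95% intervals and dotted lines at 2-fold. Ccr8, Ccr2 and Cxcr4 lie above 0 in both, and Cxcr3 lies below 0 in the former and above it in the latter.

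After thinning, a T cell held on average 0.965 and 0.994 of the 9 receptors, and 35.0% and 32.7% held 0. The mean was highest in the Il17+ class, 1.44 and 1.28, and lowest of the T classes with over 100 cells in naive-like cells of the library labelled dKO, at 0.699. Foxp3+ cells held 1.05 and 1.14. The library labelled dKO had fewer per cell in Fasl/Klrk1+ cells, 1.13 and 0.772, of which 28.2% (24.7 to 31.9) and 44.1% (39.4 to 48.8) held 0, in Cd40lg+ cells, 1.07 and 0.840, and in cycling cells, 0.910 and 0.709. Ifng+ cells also had fewer there, 1.05 and 0.847, while T cells of no gate had more, 0.908 and 1.03. At 1000 UMIs per cell a receptor can go unseen in a cell that expresses it, so these means count detections and not expression.

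T cells with a Ccr7 UMI, 812 and 580 after thinning, held Cxcr6, Ccr2, Cxcr3 and Ccr8 less often than those without. Cxcr6 was found in 6.03% (4.50 to 7.90) of them in the library labelled WT and in 27.5% (26.3 to 28.8) of the rest, and in 6.03% (4.24 to 8.29) against 25.5% (24.6 to 26.5) in that labelled dKO. Ccr2 was found in 3.57% against 14.9% and in 4.14% against 13.3%, and Cxcr3 in 5.91% against 18.5% and in 8.97% against 17.8%. For Ccr8 the shares were 5.42% against 12.4% and 10.52% against 26.9%. Cxcr4 did not part the cells in this way, with 6.28% against 5.12% and 5.52% against 7.01%. Inside the Foxp3+ class of the library labelled dKO, 87 thinned cells had a Ccr7 UMI. Cxcr6 accompanied it in 9.20% (4.05 to 17.3) of these and appeared in 25.2% (23.5 to 27.0) of the others, Ccr2 in 5.75% (1.89 to 12.9) and 15.4% (13.96 to 16.9), and Cxcr3 in 18.4% (10.9 to 28.1) and 20.3% (18.7 to 21.9). In that of the library labelled WT only 25 cells had Ccr7, and the intervals overlapped. Cxcr6 was in 3 of these (2.55% to 31.2%) and in 13.8% (10.2 to 17.98) of the others, and Cxcr3 in 6 (9.36% to 45.1%) and in 12.5% (9.15 to 16.6).

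**Figure D4:**
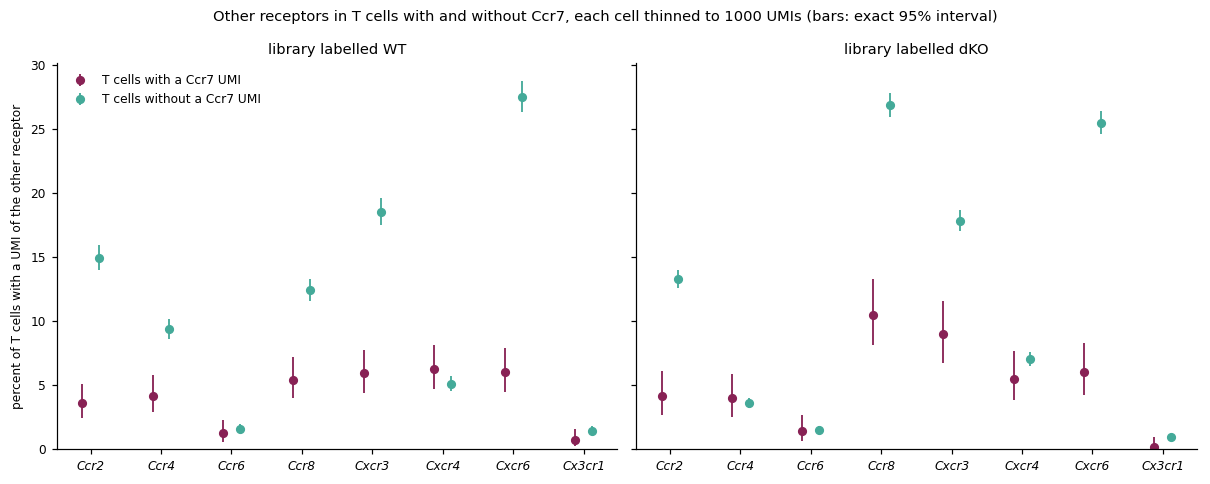
Percent of T cells with a UMI of each other receptor (vertical axis), among T cells with (purple) and without (green) a Ccr7 UMI, each cell thinned to 1000 UMIs. The left panel is the library labelled WT and the right panel that labelled dKO, and bars are exact 95% binomial intervals. Cxcr6, Ccr2, Cxcr3 and Ccr8 are lower in cells with Ccr7 in both panels.

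Some receptors were found together, not always alike in both libraries. Cxcr6 was in 38.0% (34.7 to 41.4) of T cells with Ccr2 and in 22.7% (21.5 to 23.8) of those without in the library labelled WT, and in 31.2% and 23.3% in that labelled dKO. Ccr4 was in 16.8% (9.94 to 25.9) of 95 T cells with Ccr6 against 8.57% of the rest, and in 16.3% (10.504 to 23.6) of 135 such cells against 3.41%. Ccr4 was in 12.9% (11.2 to 14.7) of T cells with Cxcr6 and 7.32% (6.59 to 8.11) of those without in the library labelled WT, and in 3.10% (2.41 to 3.91) and 3.77% (3.33 to 4.24) in that labelled dKO. Over all T cells Ccr8 was more frequent with Ccr2 than without it in the first library, 14.3% and 11.1%, and less frequent in the second, 22.1% and 26.4%. Ccr8 parted from Ccr2 inside the Foxp3+ class of the library labelled dKO, where it was in 30.4% (25.8 to 35.2) of cells with Ccr2 and in 39.6% (37.5 to 41.7) of those without. In Foxp3+ cells of the library labelled WT the same shares were 14.7% (7.56 to 24.7) of 75 cells and 21.7% (16.96 to 27.0), which overlap.

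For each member the genes of the most similar pattern were found by Pearson's r of log2(CPM + 10) over 22 profiles (11 classes in each library, 8274 genes), a description in which the profiles share libraries and classes. Ccr6 went with Il23r, the type 17 cytokine receptor and itself a gate gene (0.93), and with Il1r1 (0.91), and Ccr7 with Rapgef4 (0.94), Crlf3 (0.91) and the gate gene Igfbp4 (0.88). Cxcr6 went with Ikzf3 (0.96), Cish (0.94) and Il18r1, the IL-18 receptor chain (0.93). Ccr8 went with Vps54 (0.95), Traf1 (0.95) and Bcl2l1 (0.94), Ccr4 with Ppp1cc (0.95), Mbd2 (0.93) and Nebl (0.93), and Cx3cr1 with the lysosomal protease gene Ctsd (0.96), Rnf128 (0.92) and Tmem37 (0.92). Cxcr3 went with Oip5os1 (0.92), Slain1 (0.91) and Nfatc1 (0.90), Cxcr4 with Glud1 (0.87), Rab11fip1 (0.86) and 4930402H24Rik (0.84), and Ccr6 also with Adam12 (0.91). Ccr2 had the least similar partners, Frmd4b (0.78), Mdfic (0.77) and Rgs2 (0.76). Between members, r was highest for Ccr4 and Cxcr6 (0.79) and for Cxcr3 and Cxcr6 (0.73).

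Of 13 other chemokine receptors, 4 passed the filter in Foxp3+ cells, where 1 (Ccr9) was past 2-fold higher and 0 lower in the library labelled dKO (background 3.21% and 3.53%), and 3 in all T cells, where 2 (Ccr3 and Ccr9) were higher and 0 lower (3.64% and 2.38%). The gut-homing receptor Ccr9 had 2 and 326 UMIs in Foxp3+ cells (1.94 and 55.1 CPM), and stood at 758 and 863 CPM in pDC-like cells; the part of these in the T cell counts was not tested. The atypical receptor Ccrl2 was at 99.1 and 75.7 CPM in Foxp3+ cells. Cxcr5, the receptor of the B cell follicle chemokine CXCL13, was at 207 and 115 CPM in ILC3-like cells, from 17 and 4 UMIs. Ccr3, named after its values were seen, was at 4.67 and 45.6 CPM in all T cells and at 38.9 and 69.5 CPM in Foxp3+ cells.

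Of 16 ligands of the members, 15 were in the tables and 2 passed the filter in T cells. The CCR8 ligand Ccl1 had 5 and 159 UMIs in Foxp3+ cells (4.86 and 26.9 CPM, log2 ratio 2.47), past 2-fold higher in the library labelled dKO, and was at 94.2 and 64.1 CPM in Ifng+ cells. Cxcl10, a CXCR3 ligand, was at 65.1 and 93.8 CPM in Foxp3+ cells. Cxcl16, the ligand of CXCR6, was at 192 and 265 CPM in cells of the Lyz2 and C1q gate, and the CCR2 ligand Ccl2 there at 83.2 and 62.0 CPM and Cxcl9 at 19.2 and 243 CPM. Ccl22, a CCR4 ligand, was at 675 and 186 CPM in the 15 and 24 mature DC-like cells. Of 11 genes that carry the receptor signal, 10 passed the filter and 0 were past 2-fold in all T cells or in Foxp3+ cells, where a share near the background (3.64% and 2.38%, and 3.21% and 3.53%) would also give about 0 of 10. Gnai2, the main inhibitory G protein subunit of lymphocytes, was at 681 and 718 CPM in Foxp3+ cells, Dock2, the exchange factor for RAC in migrating lymphocytes, at 1278 and 1124 CPM, and Rac2 at 1343 and 1507 CPM. The receptor regulator Rgs1 was at 941 and 927 CPM there, and Gnai3, Gnb1, Gng2, Arrb2, Grk2 and Grk6 lay between 62.2 and 298 CPM.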

How the data were processed

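Single-cell 5′ RNA and T cell receptor libraries of sorted hepatic CD4 cells were used. The authors deposited UMI counts per gene and cell made with Cell Ranger 7.0.1 on mm10, and receptor contigs, and these counts were used as deposited. The filter kept cells with over 200 genes and a mitochondrial share below 5%. Cells were assigned to classes by UMI thresholds on marker genes (Foxp3, Il17a and Il17f, Ifng, Cd40lg and others) that hold no member. Droplets of 2 lineages (544 in the library labelled WT, 1136 in that labelled dKO) and unassigned cells (1357 and 1424) were left out; no doublet caller was run. The members, the lists and the gates were chosen with earlier results of these data known, and the limit of 2 Cd3 UMIs for cells other than T cells was set after the data were seen.

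Counts were summed per class and library and given as CPM with exact 95% Poisson intervals, ratios with exact conditional binomial intervals and shares with Clopper-Pearson intervals after thinning each cell to 1000 UMIs. PCR and sampling of mice are not covered, and with 1 library per genotype no test was made. A floor of 3 UMIs corresponds to 0.128 and 0.0794 CPM over all cells. Members, other receptors, ligands and transducers were named by fixed lists, the last 3 where a gene had at least 50 CPM in the same class of both libraries, with Ccr3 added after its values were seen; the 3 most similar genes of each member were named by rank. A further gene of the list of other receptors was left out of its counts and is not reported here. Counts were simulated for the Foxp3+ comparison (6402 genes) as Poisson draws, with changes only in genes of at least 50 CPM over both libraries together. Ccr6 did not reach that level. Of the changed genes, 97.8% of those lowered by a log2 ratio of -1.5 and 100% of those raised by 1.5 came out past 2-fold. Of unchanged genes 0.177% did. Such draws hold counting error only, so they do not give how often unchanged genes pass 2-fold between real libraries. Python 3.11.15, numpy 2.4.6, pandas 2.3.3, scipy 1.17.1, matplotlib 3.10.9, R 4.3.3 and edgeR 4.0.16 (for TMM factors only) were used.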

Additional observations from a re-analysis of the deposited data

Results flagged for a closer look

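Some receptors had ratios of opposite sign in different classes, with intervals that lay apart from 0 on either side. Each difference was picked from the values, covers counting error only and was not tested. For Ccr6 the log2 ratio of the library labelled dKO over that labelled WT was 1.53 in Cd40lg+ T cells (0.93, with an interval that includes 0, with 1 more UMI in the gates) and -2.27 in Foxp3+ T cells. For Ccr7 it was 0.28 in naive-like T cells and -1.79 in T cells of no gate. For Ccr8 it was 1.62 in T cells of no gate and -0.50 in Fasl/Klrk1+ T cells. For Cxcr3 it was 0.88 in Foxp3+ T cells and -0.57 in Fasl/Klrk1+ T cells, and for Cxcr6 it was 0.51 in Foxp3+ T cells and -0.77 in cycling T cells. Inside each library, Cxcr3 in Foxp3+ cells over all other T cells had a log2 ratio of 0.33 in the library labelled dKO and -0.66 in that labelled WT.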

How the results depend on the processing

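The 4 members past 2-fold in Foxp3+ T cells were the same genes under each of 8 settings that kept the 2-fold limit and the class mix, with 4 called each time, clones of 10 or more cells removed (added after seeing the data) included. The 1.5-fold limit gave 5, adding Cxcr3, and the resting-type share of the library labelled WT gave 3, without Ccr7 (log2 ratio -0.46). The share of all genes past the limit was computed under the first settings only. The counts under other settings, the 1.5-fold limit included, have no background to be read against. In the other comparisons the count of members past 2-fold moved as follows. Gates with 1 more UMI gave 1 in Cd40lg+ cells (Ccr4), 1 in Fasl/Klrk1+ cells (Ccr4), 2 in pDC-like cells (Ccr2 and Cxcr6), 2 for Foxp3+ over other T cells in the library labelled WT (Ccr4 and Ccr6) and 0 in that labelled dKO. Averaging CPM over cells gave 1 in Ifng+ cells (Ccr4) and 0 in the Lyz2 and C1q gate. Removing cells with 2 or more beta chains, or keeping 1 cell per clonotype, gave 0 in Ifng+Il17+ cells. The latter gave 1 in the Lyz2 and C1q gate (Cxcr6) and 4 in T cells of no gate, adding Ccr6. At least 50 CPM gave 0 in pDC-like cells and 1 in Cd40lg+ cells (Ccr4). The alternatives for Cd40lg+ cells, T cells of no gate and all T cells were added after seeing the data, and in the last 2 the 3 members past 2-fold stayed past it under each setting run. The count stayed at 1 with another gene called in pDC-like cells with no limit on Cd3 UMIs (Ccr8 for Cxcr6) and in Ifng+Il17+ cells with 1 more UMI in the gates (Cxcr6 for Ccr8). No limit on Cd3 UMIs, added after seeing the data, gave 4 in the Lyz2 and C1q gate. The 1.5-fold limit gave 1 in Il17+ cells, 3 in naive-like cells, 2 in cycling cells, 1 in iNKT cells, 4 in pDC-like cells and, for Foxp3+ over other T cells, 6 and 2. It also gave 3 in Cd40lg+ cells, adding Cxcr6, and 4 in T cells of no gate, adding Cxcr4. Of 619 log2 ratios of members recomputed, 576 stayed within the interval first found and 43 moved. The sign changed in 31 of the 619, for 21 comparisons of a member, 11 with 1 more UMI in the gates; the first interval excluded 0 in 1 of these, Cxcr6 in T cells of no gate (0.33 and -0.05), and 0 were past 2-fold. Of 312 recomputed ratios whose first interval excluded 0, 15 had one that included 0, 9 of them with 1 more UMI in the gates, 3 with 1 cell per clonotype and 3 with TMM scaling. Shares of cells with a UMI moved with depth, 442 of 648 values at other thinning depths leaving their interval. TMM factors moved ratios by at most 0.11 on the log2 scale, but by 0.62 in Ifng+Il17+ cells. The cause of each change was not tested. No paired analysis was possible because each genotype is 1 library.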

Other observations

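A few classes that are not T cells were too small for a comparison. Mature DC-like cells, 15 and 24 cells in the libraries labelled WT and dKO, held Ccr7, the receptor by which mature dendritic cells reach lymph nodes, at 2603 CPM (2067 to 3235) and 3719 CPM (3345 to 4124). ILC3-like cells, 38 and 20 cells, held Ccr7 at 988 and 1815 CPM, and Cx3cl1, the CX3CR1 ligand, at 342 and 346 CPM. B-like cells, 24 and 18 cells, held Ccr7 at 1453 and 575 CPM.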
